A study of Mus musculus with 9 samples.

Results

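The circadian clock and output genes described here were 10 genes matched by symbol in the gene tables of the series, which hold 21463 genes in common. They were the activator genes Arntl and Npas2, the repressor and feedback genes Per1, Per2, Per3, Nr1d1 and Nr1d2, and the output genes Dbp, Tef and Hlf. All 10 passed the filter on low counts at all 3 ages. RNA came from hearts of Klf9KI mice, labelled as alphaMHC-Cre plus a Klf9KI (knock-in) transgene, and of Wt-Cre mice with alphaMHC-Cre and no Klf9KI, with 3 libraries per genotype at each of 1, 4 and 8 weeks of age. Both genotypes therefore carry the driver, which acts in cardiomyocytes, while the RNA came from heart tissue with all of its cell types. Klf9-bound chromatin was profiled in 1 library of TAC hearts, 2 weeks after surgical pressure overload, and in 1 library of sham hearts, both from mice of 12 to 14 weeks. The labels give no hour of collection, no sex and no animal identity. Whether the libraries of a group came from separate animals rests on the numbers in the column names, and p-values measure only the spread between these libraries.

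The molecular clock is a feedback loop. BMAL1, the product of Arntl, pairs with CLOCK or NPAS2 and activates the Per and Nr1d genes through E-box elements. PER proteins repress that activity, and NR1D1 and NR1D2 (REV-ERB alpha and beta) repress Arntl and Npas2. Dbp, Tef and Hlf encode the PAR bZIP factors, which bind D-box elements and carry the rhythm to other genes, the Per genes among them. In mouse tissue Arntl and Dbp peak at opposite phases of the day, so the level of either depends on the hour at which a heart was taken. KLF9 is a zinc finger factor that binds GC-rich elements, is induced by glucocorticoids and is itself rhythmic in several tissues.

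The promoters of Dbp, Tef, Hlf, Nr1d2 and Per3 are shown because a deposited Klf9 region overlaps each of them. A region also overlaps the Per1 window at chr11:69099902-69100201, over 227 bases, and the other Tef window, which are not printed. Each window runs from 250 bases before to 50 bases after the gene start in RefSeq, build GRCm38.p6, in the direction of the gene. Capitals mark the E-box CACGTG, the D-box TTATGTAA or TTACGTAA, and the GC box GGGCGG, searched on both strands.

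Dbp: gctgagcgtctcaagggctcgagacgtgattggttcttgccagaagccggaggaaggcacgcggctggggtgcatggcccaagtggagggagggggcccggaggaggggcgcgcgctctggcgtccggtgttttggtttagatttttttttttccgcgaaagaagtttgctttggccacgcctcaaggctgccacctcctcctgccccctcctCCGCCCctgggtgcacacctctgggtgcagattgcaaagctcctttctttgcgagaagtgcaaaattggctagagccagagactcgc
Tef: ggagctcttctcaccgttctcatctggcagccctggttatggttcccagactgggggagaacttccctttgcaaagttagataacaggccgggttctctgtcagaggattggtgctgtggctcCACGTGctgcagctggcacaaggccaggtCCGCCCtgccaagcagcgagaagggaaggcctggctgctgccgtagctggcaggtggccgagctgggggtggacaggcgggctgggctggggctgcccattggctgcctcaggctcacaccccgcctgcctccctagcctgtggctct
Hlf: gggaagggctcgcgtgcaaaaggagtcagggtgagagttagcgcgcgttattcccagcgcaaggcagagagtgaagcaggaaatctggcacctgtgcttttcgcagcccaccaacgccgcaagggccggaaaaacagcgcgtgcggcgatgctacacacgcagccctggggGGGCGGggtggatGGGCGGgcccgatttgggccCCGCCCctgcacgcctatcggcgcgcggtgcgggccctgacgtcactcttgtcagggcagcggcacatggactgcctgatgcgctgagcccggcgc
Nr1d2: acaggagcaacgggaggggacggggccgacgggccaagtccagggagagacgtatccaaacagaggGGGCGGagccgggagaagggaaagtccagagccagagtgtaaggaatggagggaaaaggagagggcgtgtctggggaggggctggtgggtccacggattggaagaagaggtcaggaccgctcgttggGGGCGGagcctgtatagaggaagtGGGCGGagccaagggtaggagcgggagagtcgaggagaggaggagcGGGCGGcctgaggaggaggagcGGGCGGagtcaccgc
Per3: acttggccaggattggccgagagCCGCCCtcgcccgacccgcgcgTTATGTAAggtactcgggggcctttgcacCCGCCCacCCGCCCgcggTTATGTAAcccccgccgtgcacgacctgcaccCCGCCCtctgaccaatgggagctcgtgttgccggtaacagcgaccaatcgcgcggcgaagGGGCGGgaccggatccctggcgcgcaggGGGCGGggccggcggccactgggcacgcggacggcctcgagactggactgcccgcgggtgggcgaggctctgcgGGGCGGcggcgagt

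The Dbp window lies at chr7:45704997-45705296 on the plus strand and the Tef window at chr15:81802423-81802722 on the plus strand. The Hlf window is chr11:90390868-90391167, the Nr1d2 window chr14:18239057-18239356 and the Per3 window chr4:151044616-151044915, all on the minus strand. The Per3 promoter held 2 D-boxes, 205 and 158 bases before the start, and 7 GC boxes. Nr1d2 had 5 GC boxes, Hlf had 3, and Dbp and Tef had 1 each. Tef also had 1 E-box, 127 bases before the start. Among 32851 promoter windows of the same length, 1.06% held a D-box, 7.15% an E-box and 35.7% a GC box, so a GC box is common and a D-box is not. A match is a run of letters and not a measured binding site.

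At 1 week the clock genes differed little between the genotypes, with Dbp and Per3 lower in Klf9KI hearts. Klf9 itself averaged 199 ± 20.3 CPM (counts scaled to the effective library size) in Klf9KI hearts and 20.8 ± 3.18 CPM in Wt-Cre hearts (SD, n = 3 each), and every Klf9KI library of that age lay above every Wt-Cre library. Dbp, an output gene that BMAL1 activates through E-boxes, measured 8.62, 8.01 and 13.5 CPM in Klf9KI hearts, against 19.4, 25.0 and 19.2 CPM in Wt-Cre hearts. The groups did not overlap, and the log2 fold change was -1.07 (SE 0.22, adjusted p = 0.0255, edgeR quasi-likelihood test with Benjamini-Hochberg adjustment). Per3, a period gene that also takes input from D-boxes, measured 47.2, 49.5 and 48.6 CPM in Klf9KI hearts, against 65.6, 80.2 and 79.2 CPM in Wt-Cre hearts. Its log2 fold change was -0.63 (SE 0.11, edgeR adjusted p = 0.0101). Thus 2 of 10 genes were lower and none was higher, where 1.03% of the 15825 genes tested were lower and 0.651% were higher.

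Per2 went the other way in level. It measured 33.8, 30.1 and 43.9 CPM in Klf9KI hearts, against 23.4, 21.3 and 24.5 CPM in Wt-Cre hearts, with no overlap, and it missed the threshold (log2 fold change 0.64, edgeR adjusted p = 0.0503). It was called higher in 5 alternatives, by the DESeq2 Wald test (adjusted p = 0.0157), without a filter (0.00263), with DESeq2 size factors (0.0481), with a filter of 1 CPM in 3 libraries (0.0448) and with mitochondrially encoded genes left out (0.0497). Npas2 measured 7.58, 9.86 and 12.2 CPM in Klf9KI hearts, against 16.4, 13.4 and 17.3 CPM in Wt-Cre hearts (log2 fold change -0.66, edgeR adjusted p = 0.163). For Tef, Hlf, Nr1d1, Nr1d2, Per1 and Arntl the log2 fold changes lay between -0.25 and 0.23, with adjusted p of 0.491 or more.

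Klf9KI replicates 1 and 2 at 1 week were the libraries with Xist above 100 CPM, among all 18, and they also had the lowest Dbp levels of their age. Without these 2 libraries the Dbp difference was -0.63 (edgeR adjusted p = 0.448) and the Per3 difference -0.61 (adjusted p = 0.204), so neither call was kept. With sex as a covariate they were -0.65 and -0.63 (adjusted p = 0.516 and 0.279). Single libraries also ended these calls, since Dbp had an edgeR adjusted p of 0.0696 to 0.153 when replicate 1 or 2 of the Klf9KI hearts, or 2 or 3 of the Wt-Cre hearts, was left out. Per3 had 0.0518 to 0.0621 when Klf9KI heart 2 or 3, or Wt-Cre heart 3, was left out. The summed level of the 4 atrial markers also varied, at 27.7 to 997 CPM in Klf9KI hearts and 536 to 2454 CPM in Wt-Cre hearts, with 0 of 4 past the threshold and none of them at 0 in any heart. The 4 adipose markers summed to 15.01 to 24.1 CPM in Klf9KI hearts and 29.3 to 47.7 CPM in Wt-Cre hearts, with none called and Adipoq, Plin1 and Ucp1 at 0 in some hearts. Mitochondrially encoded genes took 13.7 to 14.1% of counts in Klf9KI hearts and 11.01 to 13.05% in Wt-Cre hearts. The part of these measures in the result was not tested.

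**Figure D1:**
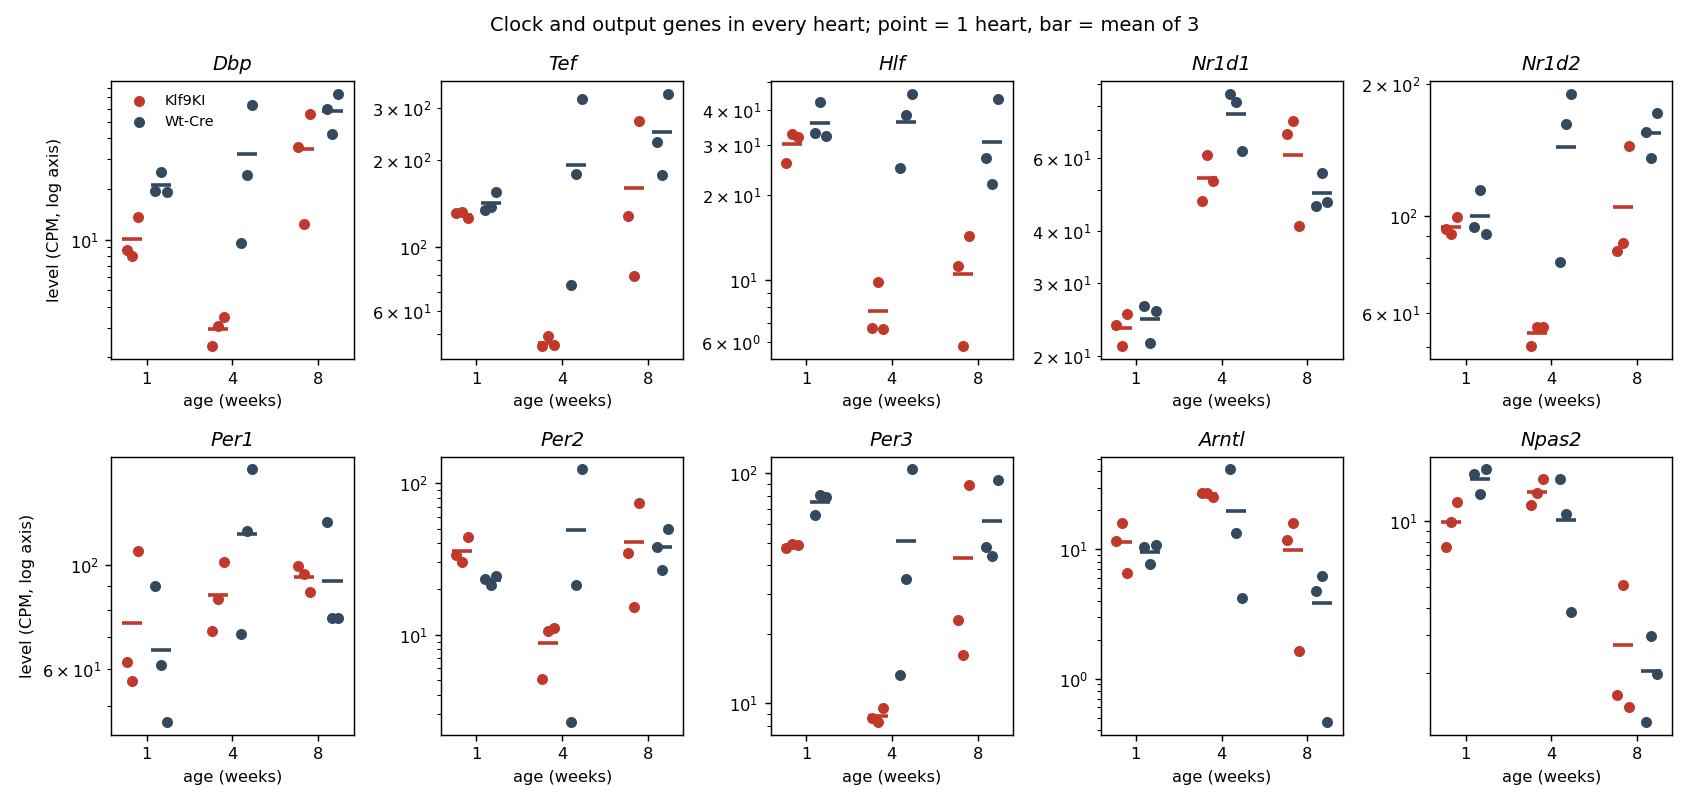
Level of each gene in every heart, in CPM on a log axis, by age in weeks, with Klf9KI left of Wt-Cre; points are hearts and bars are means of 3. At 4 weeks the Klf9KI hearts lie close together while the Wt-Cre hearts spread, as for Dbp with 2.32 to 3.47 CPM against 9.50 to 62.9 CPM.

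At 4 weeks the outputs and the Nr1d genes were lower in Klf9KI hearts, and Hlf, Tef and Dbp, all 3 PAR bZIP genes, were among them. Hlf fell to 21.3% of its mean Wt-Cre level, Tef to 24.4% and Dbp to 9.15%, while Arntl and Npas2 did not pass the test. In all, 5 of 10 genes were lower and none was higher, where 6.75% of the 14513 genes tested were lower and 6.65% were higher. Klf9 measured 143, 179 and 167 CPM in Klf9KI hearts, against 113, 142 and 123 CPM in Wt-Cre hearts. That difference missed the threshold (log2 fold change 0.37, edgeR adjusted p = 0.111), although every Klf9KI heart lay above every Wt-Cre heart.

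Hlf, whose product is a PAR bZIP activator, measured 6.73, 9.78 and 6.66 CPM in Klf9KI hearts, against 24.9, 38.4 and 45.6 CPM in Wt-Cre hearts. The groups stood well apart, with a log2 fold change of -2.23 (SE 0.24, edgeR adjusted p = 0.000204). Dbp measured 2.32, 3.07 and 3.47 CPM in Klf9KI hearts, against 9.50, 24.3 and 62.9 CPM in Wt-Cre hearts. Its log2 fold change was -3.44 with an SE of 0.75, beside a 6.62-fold range among Wt-Cre hearts (edgeR adjusted p = 0.0345). Tef measured 45.4, 49.4 and 45.8 CPM in Klf9KI hearts, against 73.7, 179 and 323 CPM in Wt-Cre hearts (log2 fold change -2.03, SE 0.50, edgeR adjusted p = 0.0472).

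Both REV-ERB genes were lower as well. Nr1d2 measured 50.2, 55.7 and 55.6 CPM in Klf9KI hearts, against 78.2, 163 and 190.5 CPM in Wt-Cre hearts (log2 fold change -1.42, SE 0.28, edgeR adjusted p = 0.0106). Nr1d1 measured 47.1, 60.9 and 52.6 CPM in Klf9KI hearts, against 85.5, 81.5 and 62.2 CPM in Wt-Cre hearts. This was the smallest called change of the 5, at -0.51 (SE 0.15, edgeR adjusted p = 0.0464), and in Wt-Cre hearts its order was the reverse of that of Nr1d2. Nr1d1 overlaps Thra on the opposite strand, and without a stated strand setting its counts are uncertain.

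The period genes were not called at 4 weeks. Per3 measured 8.61, 8.28 and 9.58 CPM in Klf9KI hearts, against 13.3, 34.8 and 104 CPM in Wt-Cre hearts, with no overlap but no call (log2 fold change -2.52, SE 0.77, edgeR adjusted p = 0.0973). It was called lower by the DESeq2 Wald test (adjusted p = 0.0154), with all 18 libraries in 1 fit (edgeR, 0.0449) and without the robust option (0.0163). Per2 measured 5.09, 10.6 and 11.01 CPM in Klf9KI hearts, against 2.65, 21.2 and 123 CPM in Wt-Cre hearts. The Klf9KI values fall inside the Wt-Cre range (log2 fold change -2.46, SE 1.34, edgeR adjusted p = 0.328). Per1, the period gene most open to acute signals such as glucocorticoids, measured 72.4, 84.4 and 101 CPM in Klf9KI hearts, against 71.3, 118 and 159.6 CPM in Wt-Cre hearts (edgeR adjusted p = 0.330).

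Among Wt-Cre hearts the activators ran in the opposite order to Per2 and Per3. Arntl measured 27.0, 27.5 and 25.5 CPM in Klf9KI hearts, against 41.5, 13.3 and 4.22 CPM in Wt-Cre hearts, so Wt-Cre replicate 1 had the highest Arntl and the lowest Dbp, Tef, Per2 and Per3 of its group, and replicate 3 the reverse. Npas2, the partner of BMAL1, measured 11.9, 13.4 and 15.6 CPM in Klf9KI hearts, against 15.7, 10.8 and 3.81 CPM in Wt-Cre hearts. Neither activator passed the test, with log2 fold changes of 0.44 for both and edgeR adjusted p of 0.769 and 0.544. Without Wt-Cre replicate 1 the Arntl difference was 1.61 (edgeR adjusted p = 0.0272), so that 1 library decided whether Arntl was called.

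**Figure D2:**
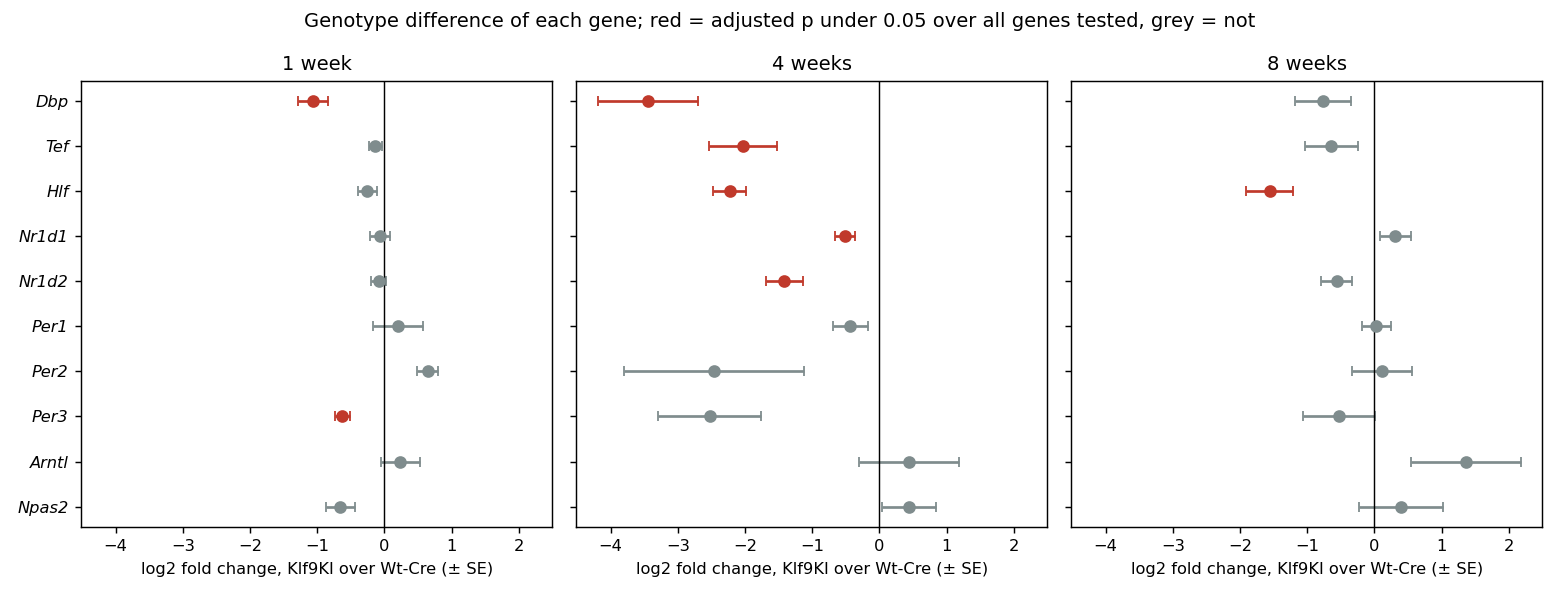
Log2 fold change of each gene, Klf9KI over Wt-Cre, with SE, at 1, 4 and 8 weeks; red points passed an adjusted p of 0.05 over all genes tested. Hlf is at -0.25 at 1 week, -2.23 at 4 weeks and -1.56 at 8 weeks.

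The 5 genes called at 4 weeks differed in how often an alternative ended the call. Hlf kept its call in all 16 alternatives, with log2 fold changes between -2.44 and -1.92 and adjusted p up to 0.00287. Nr1d2 lost it in 3, Dbp in 4, and Tef and Nr1d1 in 7 each, with the direction unchanged for all 5. Leaving out any 1 of the 3 Klf9KI hearts ended the calls of Dbp (edgeR adjusted p 0.0980 to 0.147), Tef (0.110 to 0.139) and Nr1d1 (0.0664 to 0.230), and that of Nr1d2 ended without Klf9KI replicate 1 (0.0507). Without Wt-Cre replicate 1 the Nr1d1 call ended (0.126), while Per3 was called at -2.97 (0.00341) and Per1 at -0.68 (0.0343). Without Wt-Cre replicate 2 the calls of Tef (0.0861) and Nr1d1 (0.109) ended. Without Wt-Cre replicate 3, the heart with the lowest Arntl, the Tef difference was -1.43 (edgeR adjusted p = 0.109) and the Nr1d2 difference -1.16 (adjusted p = 0.0768), and Per3 was called at -1.45 (0.0473).

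Other measures moved with genotype at 4 weeks. The summed level of 5 cardiomyocyte markers was 28309 to 33408 CPM in Klf9KI hearts and 42414 to 46914 CPM in Wt-Cre hearts. Of these 5, 2 were lower, Myh6 and Ryr2, and Tnnt2, Actn2 and Tnni3 were not called. Myh6 was the largest part of the sum, at a mean of 19286 CPM in Klf9KI hearts and 30975 CPM in Wt-Cre hearts. Actn2 averaged 2155 CPM in Klf9KI hearts and 2081 CPM in Wt-Cre hearts. The 3 smooth muscle and pericyte markers summed to 239 to 271 CPM in Klf9KI hearts and 502 to 1228 CPM in Wt-Cre hearts, with 1 lower, Acta2. The 4 fibroblast markers summed to 1003 to 1205 CPM in Klf9KI hearts and 712 to 956 CPM in Wt-Cre hearts, with none called. Of these, Col1a1 averaged 532 CPM in Klf9KI hearts and 289 CPM in Wt-Cre hearts, and Dcn 469 and 463 CPM. None of these markers was at 0 in any heart. The 4 macrophage markers, also without a 0, summed to 148.2 to 222 CPM in Klf9KI hearts and 121 to 142 CPM in Wt-Cre hearts, and Adgre1 was higher (edgeR adjusted p = 0.0475). The 2 adipose markers in the table summed to 8.87 to 11.3 CPM in Klf9KI hearts and 16.001 to 20.9 CPM in Wt-Cre hearts, with Cidea lower (edgeR adjusted p = 0.00807) and Plin1 at 0 in some hearts. The 3 atrial markers in the table summed to 4.48 to 5.69 CPM in Klf9KI hearts and 2.48 to 2.99 CPM in Wt-Cre hearts, with none called and Myl7 and Sln at 0 in some hearts. Mitochondrially encoded genes took 19.3 to 19.8% of counts in Klf9KI hearts and 20.2 to 24.9% in Wt-Cre hearts. The part of these measures in the clock gene differences was not tested. In heart tissue fewer cells of a type, less RNA per cell and a change of single marker genes cannot be told apart.

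At 8 weeks Hlf was the 1 gene of 10 past the threshold, lower in Klf9KI hearts, where 5.52% of the 14483 genes tested were lower and 4.96% were higher. It measured 11.2, 5.79 and 14.3 CPM in Klf9KI hearts, against 27.0, 21.9 and 43.5 CPM in Wt-Cre hearts. The groups did not overlap, and the log2 fold change was -1.56 (SE 0.35, edgeR adjusted p = 0.0177). Leaving out Klf9KI replicate 1 ended the call (-1.61, edgeR adjusted p = 0.0698), as did leaving out Wt-Cre replicate 1 (-1.64, 0.0588) or Wt-Cre replicate 3 (-1.23, 0.0895).

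The other 9 genes overlapped between the genotypes at 8 weeks. With same-numbered hearts as blocks, Dbp, Tef and Per3 passed as lower and Arntl as higher (edgeR adjusted p 0.0164 to 0.0457). That fit called 1890 genes in all. Dbp measured 35.5, 12.3 and 55.3 CPM in Klf9KI hearts, against 59.4, 42.1 and 73.6 CPM in Wt-Cre hearts (log2 fold change -0.76, SE 0.42, edgeR adjusted p = 0.295). Arntl measured 11.8, 16.02 and 1.64 CPM in Klf9KI hearts, against 4.78, 6.22 and 0.46 CPM in Wt-Cre hearts, the last from 6 counts (log2 fold change 1.37, SE 0.82, edgeR adjusted p = 0.338). Replicate 3 of each genotype had the lowest Arntl and the highest Dbp, Tef, Hlf, Per2 and Per3 of its group. Without Klf9KI replicate 3, Tef, Nr1d2 and Per3 passed as lower, with differences of -1.26, -0.86 and -1.65 (edgeR adjusted p = 0.0204, 0.0154 and 0.00937). Klf9 averaged 114 ± 7.16 CPM in Klf9KI hearts and 50.0 ± 13.6 CPM in Wt-Cre hearts (SD, n = 3 each).

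Markers of other cells differed at 8 weeks too. The 5 cardiomyocyte markers summed to 16988 to 18931 CPM in Klf9KI hearts and 25395 to 30804 CPM in Wt-Cre hearts, with 1 lower, Tnni3. Myh6, the largest part of the sum, averaged 7247 CPM in Klf9KI hearts and 13744 CPM in Wt-Cre hearts without a call. Actn2 averaged 1613 and 1555 CPM. The 4 fibroblast markers summed to 661 to 1215 CPM in Klf9KI hearts and 452 to 524 CPM in Wt-Cre hearts, with 1 higher. The 4 macrophage markers summed to 180.3 to 203 CPM in Klf9KI hearts and 99.2 to 121 CPM in Wt-Cre hearts, with 2 higher. The 4 adipose markers summed to 18.5 to 32.3 CPM in Klf9KI hearts and 33.8 to 39.9 CPM in Wt-Cre hearts, with none called and Adipoq, Plin1 and Ucp1 at 0 in some hearts. Mitochondrially encoded genes took 18.6 to 20.9% of counts in Klf9KI hearts and 27.7 to 29.7% in Wt-Cre hearts. Hlf kept its call with those genes left out, and the part of the cell markers in it was not tested.

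The clock genes moved together from heart to heart. After the mean of each of the 6 groups was taken away, the log2 level of Arntl ran against Per3 (Pearson r = -0.90), Tef (-0.88), Hlf (-0.81), Dbp (-0.80), Nr1d2 (-0.80) and Per2 (-0.74) over 18 hearts, and with Nr1d1 (0.68) and Npas2 (0.55). For Per1 r was -0.23, made up of -0.67 at 1 week, -0.92 at 4 weeks and 0.47 at 8 weeks. These values are a description over hearts that share a table and scaling within an age. Spearman's rho was -0.86 for Per3 and -0.69 for Hlf. Within the 6 hearts of each age, r for Per3 was -0.18, -0.998 and -0.92 at 1, 4 and 8 weeks, for Hlf -0.34, -0.79 and -0.87, and for Nr1d1 -0.37, 0.77 and 0.76. For Dbp it was -0.96, -0.98 and -0.73, for Tef 0.35, -0.99 and -0.90, for Nr1d2 -0.68, -0.93 and -0.84, for Per2 -0.77, -0.98 and -0.81, and for Npas2 -0.30, 0.95 and 0.41. Thus Tef, Nr1d1 and Npas2 had another sign at 1 week than at the later ages, and Per1 another sign at 8 weeks. At 4 weeks log2 Arntl was 4.74 to 4.83 in Klf9KI hearts and 2.16 to 5.44 in Wt-Cre hearts. The r values of that age therefore rest mainly on the Wt-Cre hearts and say little about Klf9KI hearts. Leaving out Wt-Cre and Klf9KI replicate 3 of 8 weeks, the hearts farthest from their group's Arntl level, gave -0.90 for Per3, -0.70 for Hlf and -0.53 for Per1, with the other genes at -0.87 to -0.83 (Tef, Dbp, Nr1d2 and Per2), 0.59 (Nr1d1) and 0.61 (Npas2).

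**Figure D3:**
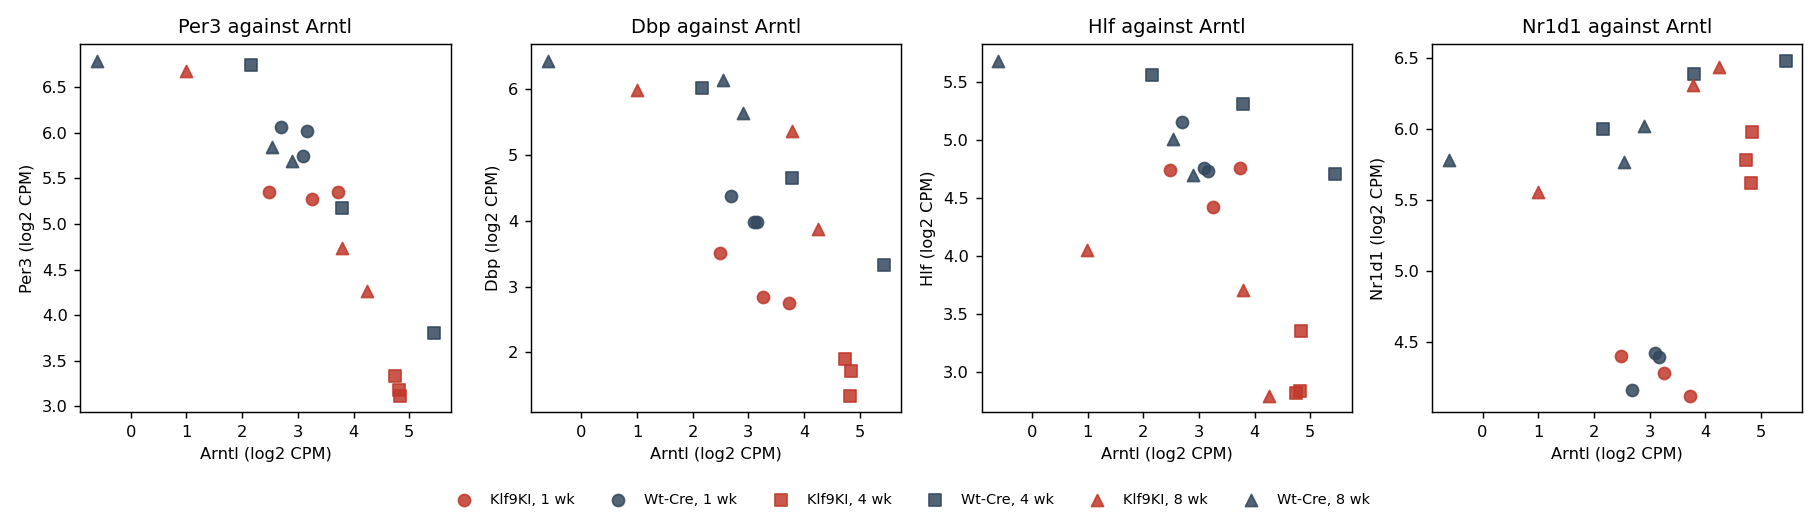
Log2 CPM of Per3, Dbp, Hlf and Nr1d1 against log2 CPM of Arntl in 18 hearts, scaled over all libraries; colour is genotype and shape is age. Per3 falls as Arntl rises, with r of -0.90 after group means were removed, and Nr1d1 rises with it, with r of 0.68.

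A clock axis was set for each heart as the mean log2 CPM of the 8 repressor and output genes minus that of Arntl and Npas2. At 4 weeks it was -0.12, 0.13 and 0.06 in Klf9KI hearts, against 0.09, 2.34 and 4.75 in Wt-Cre hearts. On this axis Wt-Cre replicate 1 thus lay within the range of the 3 Klf9KI hearts, and the other Wt-Cre hearts lay far from it. Its single genes did not match those hearts. Its Dbp, Hlf and Arntl were 9.50, 24.9 and 41.5 CPM, against at most 3.47, 9.78 and 27.5 CPM in Klf9KI hearts. Its Per2 was 2.65 CPM, against at least 5.09 CPM. At 1 week the axis averaged 2.04 ± 0.39 in Klf9KI hearts and 1.97 ± 0.28 in Wt-Cre hearts, and at 8 weeks 3.54 ± 1.86 in Klf9KI hearts and 4.94 ± 1.32 in Wt-Cre hearts (SD, n = 3 each). Since the axis is built from the genes themselves, no test was made of it, and a shift of the hour of collection and an effect of genotype on the clock cannot be told apart from these data.

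**Figure D4:**
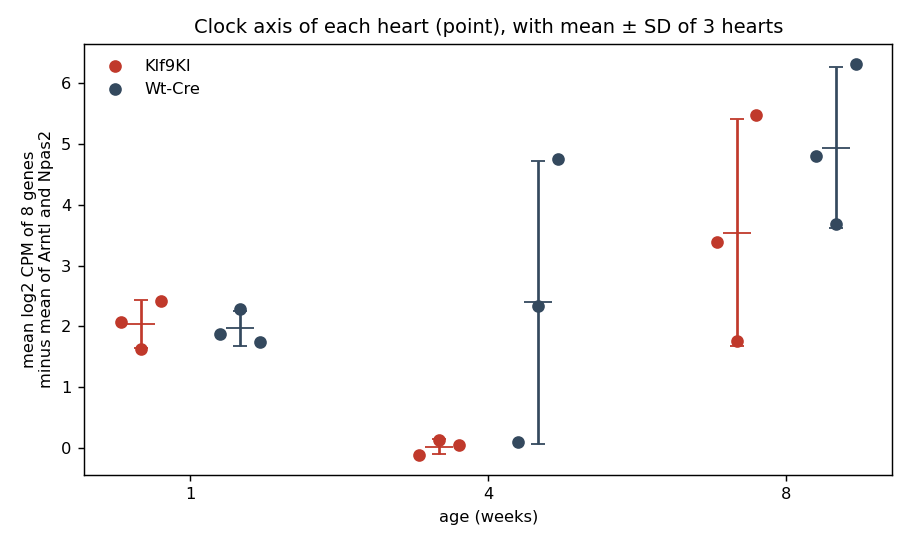
Clock axis of each heart, as the mean log2 CPM of 8 repressor and output genes minus that of Arntl and Npas2, by age in weeks, with mean ± SD of 3 hearts. The Klf9KI hearts of 4 weeks span 0.25 log2 units and the Wt-Cre hearts of 4 weeks 4.65.

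With the Arntl level of each heart as a covariate, an alternative chosen after seeing the data, the 4-week differences were smaller for 4 of the 5 genes called and remained past the threshold for all 5. Hlf was at -1.92 (edgeR adjusted p = 2.02e-05), Dbp at -2.21 (7.30e-06), Tef at -1.15 (6.54e-05), Nr1d2 at -0.94 (0.000870) and Nr1d1 at -0.64 (0.00669). Per3 then passed too, at -1.14 (edgeR adjusted p = 0.000258). At 8 weeks the Hlf difference was -1.17 with that covariate (edgeR adjusted p = 0.0229), and Per3 was at -0.10 (adjusted p = 0.867). Arntl is itself a clock gene measured in the same libraries, so this is no correction for the hour.

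Whether the genotype difference itself differed between ages was tested in 1 fit of all 18 libraries. Hlf was the 1 gene of 10 for which it did, with a difference larger on the lower side by 1.98 log2 units at 4 weeks than at 1 week (-1.98, SE 0.41, edgeR adjusted p = 0.0149) and by 1.34 at 8 weeks than at 1 week (-1.34, SE 0.40, edgeR adjusted p = 0.0400). The call between 4 weeks and 1 week ended in 3 of 18 fits that left out 1 library: without Wt-Cre replicate 3 of 1 week (-1.90, adjusted p = 0.0570) or without Klf9KI replicate 1 (-1.89, 0.0647) or 3 (-1.88, 0.0592) of 4 weeks. The call between 8 weeks and 1 week ended in 11 of 18, where all 18 values lay between -1.62 and -1.02 and edgeR adjusted p reached 0.122. Among the hearts whose omission ended it, those of 1 week were Klf9KI hearts 2 and 3 and Wt-Cre hearts 1 and 3. Those of 4 weeks were Klf9KI hearts 1 and 3 and Wt-Cre heart 2, and those of 8 weeks were Klf9KI hearts 1 and 2 and Wt-Cre hearts 1 and 3. Across all 16660 genes tested there, 1.15% differed between 4 weeks and 1 week and 9.45% between 8 weeks and 1 week. Between 8 and 4 weeks 0.48% of genes differed and none of the 10, Hlf being at 0.64 (edgeR adjusted p = 0.529); at an unadjusted p under 0.05 Dbp, Tef, Nr1d1 and Nr1d2 did, and DESeq2 called 1 gene of the 10. Between 4 weeks and 1 week Nr1d2, at -1.33, missed the threshold (edgeR adjusted p = 0.0620). Tef, Dbp and Per2 were at -1.90, -2.38 and -3.10 there (adjusted p = 0.229, 0.290 and 0.408). Like Nr1d2, they had an unadjusted p under 0.05, so a lower difference at 4 weeks was not particular to Hlf.

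Changes with age were called for some of the 10 genes in both genotypes, at shares near or below those of all genes at 4 weeks against 1 week in both genotypes and at 8 weeks against 4 weeks in Wt-Cre hearts. Within Klf9KI hearts 1 gene was higher and 2 were lower at 4 weeks than at 1 week (33.8% of all genes called), 4 were higher and 1 lower at 8 weeks than at 4 weeks (10.5%), and 4 were higher and 2 lower at 8 weeks than at 1 week (28.9%). Within Wt-Cre hearts 3 were higher and none lower at 4 weeks than at 1 week (35%), 1 was lower at 8 weeks than at 4 weeks (19.1%), and 5 were higher and 1 lower at 8 weeks than at 1 week (38.3%). Nr1d1 rose at 4 weeks against 1 week in both genotypes, by 1.53 log2 units in Klf9KI hearts and 1.98 in Wt-Cre hearts (SE 0.19 each, edgeR adjusted p = 5.44e-06 and 2.10e-07). Hlf fell by 1.63 in Klf9KI hearts over that interval (SE 0.30, edgeR adjusted p = 0.000321) and was not called in Wt-Cre hearts. Npas2 fell at 8 weeks against 4 weeks by 2.19 in Klf9KI hearts and by 2.12 in Wt-Cre hearts (edgeR adjusted p = 0.00606 and 0.00572). Each age has its own table, so age and any batch that follows age cannot be told apart.

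Levels of different genes were compared in the deposited FPKM, which divide by gene length. In Klf9KI hearts of 4 weeks Nr1d1 was highest at 17.8 ± 2.25 FPKM, followed by Per1 at 15.6 ± 2.72, which lies within their spread, and Per3 was lowest at 0.94 ± 0.08. In Wt-Cre hearts of 4 weeks Nr1d2 led at 27.4 ± 11.2 FPKM, with Nr1d1 at 25.6 ± 4.204 and Tef at 25.2 ± 16.4 within its spread, and Npas2 was lowest at 2.17 ± 1.28 (SD, n = 3 each). By these means Arntl ranked 5 of 10 in the Klf9KI hearts (3.62 ± 0.12 FPKM) and 9 of 10 in the Wt-Cre hearts (2.70 ± 2.66 FPKM). The order differed between single Wt-Cre hearts, where Arntl measured 5.69, 1.84 and 0.58 FPKM. The lowest gene was Per2 in replicate 1 (0.47 FPKM) and Arntl in replicates 2 and 3, and Npas2 in none. The ranks thus describe means and not a difference between the genotypes.

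Of 16 further clock genes, 5 passed at 4 weeks, with Cry2 and Bhlhe40 lower and Rorb, Fbxl21 and Timeless higher, where 6.75% of all genes tested were lower and 6.65% higher. Cry2, a repressor that works with the PER proteins, averaged 15.1 ± 3.15 CPM in Klf9KI hearts and 35.9 ± 15.6 CPM in Wt-Cre hearts (SD, n = 3 each), a log2 fold change of -1.25 (edgeR adjusted p = 0.0194). Rorb and Fbxl21 averaged at most 1.46 CPM in either genotype. The median log2 fold change of these 16 genes, which went both ways, was -0.07 at 4 weeks, against -1.72 for the 10 genes described here and 8.9e-05 for all genes tested. At 1 week none of the 16 passed by edgeR, with 1 of them at an unadjusted p under 0.05, and at 8 weeks Bhlhe40 was higher.

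Of 10 genes known as clock targets, Nampt and Dgat2 were lower at 4 weeks, and Nampt, Klf15, Kcnip2, Dgat2 and Ucp3 at 8 weeks, with none higher at either age. Dgat2, which makes triglyceride, averaged 129 ± 12.7 CPM in Klf9KI hearts and 297 ± 39.0 CPM in Wt-Cre hearts at 4 weeks (SD, n = 3 each; log2 fold change -1.20, edgeR adjusted p = 0.000353). Klf15, a circadian Krüppel-like factor of heart muscle, was higher at 1 week (1.38, edgeR adjusted p = 0.00191) and lower at 8 weeks (-0.93, adjusted p = 0.0247). Of 6 glucocorticoid-induced genes Zbtb16 was lower at 4 weeks (-3.08, edgeR adjusted p = 0.0380) and Fkbp5 higher at 8 weeks (1.00, adjusted p = 0.0385). Of 7 temperature-responsive genes Hsph1 was higher at 1 week and Hsp90aa1 and Hsph1 at 4 weeks, by 0.99 and 1.01 at the later age (edgeR adjusted p = 0.00335 and 0.0164).

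The heart-to-heart profiles of Dbp and Arntl were compared with other genes over the 18 hearts, after group means were removed, among 10667 protein-coding genes of at least 5 CPM. Those most like Dbp were Sult1a1, Slc1a5, Zfp445, Rbm5 and Prodh, with Pearson r of 0.96 to 0.92. Those most like Arntl were Cnksr3, Slc41a3, Adgra3, Hsp90b1 and Rpn1, with r of 0.93 to 0.89. With the 10 genes themselves in the ranking, Per2 was at rank 2 of 10676 for Dbp, and Per3 at rank 5 from the bottom for Arntl. These were the most extreme of them. For Dbp, Per1 was at rank 1576 and Nr1d1 at rank 9652, and for Arntl, Npas2 was at rank 1423 and Per1 at rank 7495.

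Klf9 regions were listed at 9 of the 10 genes, all but Arntl, in 17 regions out of 5238. For comparison, 39.2% of the 13713 genes tested at all 3 ages were listed with a region, and 28.7% had one within 1 kb of their start, as 7 of these 10 did. The Npas2 region lies 173602 bases from its start and also lists Rpl31 and Tbc1d8, so it is a region of that gene only by the authors' list. There is 1 library per condition and therefore no test. The values are the authors' mean signal per region, and how they scaled it between the libraries is not given in the sources used here.

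The strongest was at Dbp, chr7:45705744-45706292, inside the gene 771 bases from its start, and it also lists the neighbours Car11 and Sphk2. Its signal was 86.8 in the TAC library and 97.7 in the sham library, where it ranked 6 of 5238. The medians of all regions were 23.2 in TAC and 24.6 in sham. Dbp had 4 further regions, among them 1 that covers the printed promoter, with 15.2 in TAC and 20.9 in sham. That promoter region was below the median of all regions in both libraries and had a presence call in sham alone. Another of the 4 lies 10169 bases from the Dbp start and also lists Sphk2, Rpl18, Fam83e and Spaca4. It too had a presence call in sham alone, and it is a region of Dbp only by the authors' list.

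The Hlf region, 82 bases before the start, had 20.9 in TAC and 24.3 in sham. The Nr1d2 region, over the promoter with 5 GC boxes, had 49.4 in TAC and 43.9 in sham. The Per3 region, over 7 GC boxes, had 22.8 in TAC and 21.7 in sham. Of the Tef regions, the one 8582 bases into the gene had 37.9 in TAC and 43.4 in sham. It had a presence call in both libraries and covers the Tef window that is not printed. The Tef region 80 bases before the start, over the printed window, had 20.9 in TAC and 11.1 in sham, with a presence call in TAC alone.

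That Tef region was the 1 of 17 past a 1.5-fold change, higher in TAC (log2 ratio 0.90, in the authors' table), where 5.63% of all regions were that much higher and 12.9% that much lower. Of the 17, 12 were lower in TAC and 5 higher, with a median log2 ratio of -0.19, against -0.12 for all regions. The authors' presence call held in both libraries for 12, in sham alone for 3 and in TAC alone for 2. A CpG island was listed in 13 of 17, against 80.7% of all regions.

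**Figure D5:**
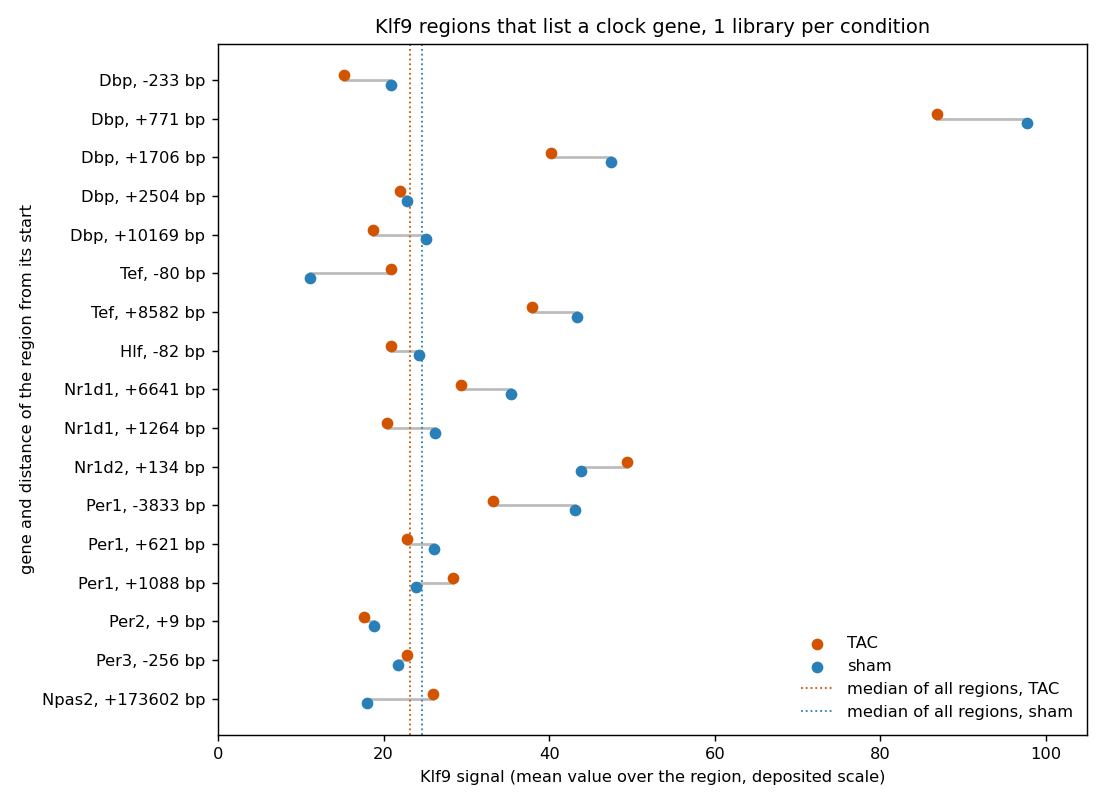
Klf9 signal of the 17 regions that list a clock gene, as the authors' mean value per region, in the TAC and the sham library, by gene and distance in bases from its start; dotted lines are the medians of all 5238 regions. The Dbp region at 771 bases has 86.8 in TAC and 97.7 in sham, well to the right of the others.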

How the data were processed

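Gene tables of 18 mouse heart libraries and 1 table of Klf9 regions were used. The authors' raw counts per gene, per the file headers, were tested, and their deposited FPKM served to compare genes. Their read processing used build mm10 and, by the submitters' processing notes, MACS2 2.1.0 with BWA, and featureCounts 1.5.0-p3, HISAT2 2.0.5 and fastp, beside DESeq2 1.20.0 and StringTie 1.3.3b. The authors deposited a region signal and a log2 ratio of TAC to sham. The authors' own p-values for genes, per the file headers, were not used for any call. Another 18 deposited per-heart columns of normalised values were not used. Totals were 12086900 to 32855400 counts per library.

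Each age was fitted in edgeR 4.0.16 (R 4.3.3) by its quasi-likelihood method with robust dispersion, filterByExpr, TMM and Benjamini-Hochberg adjustment over all genes tested, at 0.05. Ages were compared in 1 fit of 18 libraries. CPM use the effective library size, and log2 CPM a prior count of 2. DESeq2 1.42.0 was an alternative. The fit of each age and the test of the genotype effect between 4 weeks and 1 week were tried on simulated counts. The other steps were not. The strand setting of the libraries is not given, so reads of overlapping antisense genes cannot be told apart. Members, lists and tests were chosen with earlier results of these data known. All 10 members are named at every age, and genes of other lists where they passed the test, except 1 result that is not reported here.

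Promoter sequences are from RefSeq (GRCm38.p6, the assembly of mm10), matched by symbol for 9 of 10 genes, all but Per2. Of 2 Tef windows the first is shown. CACCC and AGGTCA were also searched, and 57.5% and 16.3% of 32851 windows held them.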

Additional observations from a re-analysis of the deposited data

Results flagged for a closer look

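Hlf was the 1 clock gene of 10 called for a genotype difference that differed between ages in the fit of all 18 libraries. Of all 16660 genes tested there, 1.15% were called between 4 weeks and 1 week. Between 8 weeks and 1 week 9.45% were called, a share near that of the clock genes. Nr1d2 was at -1.33 between 4 weeks and 1 week (edgeR adjusted p = 0.0620). For Hlf the Klf9KI minus Wt-Cre difference was lower by 1.98 at 4 weeks than at 1 week (-1.98, SE 0.41, edgeR adjusted p = 0.0149) and by 1.34 at 8 weeks than at 1 week (-1.34, SE 0.40, adjusted p = 0.0400), on the log2 scale. Hlf was lower in each of the 3 Klf9KI hearts than in any Wt-Cre heart at 4 and at 8 weeks, and the groups overlapped at 1 week. Leaving out 1 library gave -2.19 to -1.78 between 4 weeks and 1 week, and the call ended in 3 of 18 such fits (without Wt-Cre replicate 3 of 1 week, or Klf9KI replicate 1 or 3 of 4 weeks, edgeR adjusted p = 0.0570, 0.0647 and 0.0592). Between 8 weeks and 1 week it gave -1.62 to -1.02, and the call ended in 11 of 18, with edgeR adjusted p up to 0.122.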

How the results depend on the processing

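The sample numbers come only from column names, and the correlations of same-numbered hearts were -0.12 to 0.097 at 1 week, 0.029 to 0.23 at 4 weeks and 0.063 to 0.14 at 8 weeks. Not every pair was over 0.1, so they were not taken as pairs. At 8 weeks, however, same-numbered hearts ranked alike in both genotypes for Dbp, Tef, Hlf, Per1, Per2, Per3 and Arntl. With a replicate block the clock genes called were 2, 4 and 5 at 1, 4 and 8 weeks, among 189, 2566 and 1890 genes called in all. Dbp, Tef, Per3 and Arntl were added at 8 weeks, Tef was lost at 4 weeks, and Per2 was at -0.10 at 8 weeks.

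At 1 week the clock genes called were 0 with all 18 libraries in 1 fit, with sex as a covariate, without the Xist libraries and with Arntl as a covariate in that fit. All genes called then were 47 in 1 fit, 10 with sex and 21 without the Xist libraries, against 530 by DESeq2, 672 without a filter and 166 without the robust option. At 4 weeks 2 clock genes were called without a filter, and at 8 weeks 2, among 2223 and 2067 genes called in all. All genes called at 8 weeks were 3278 in 1 fit. Between ages, DESeq2 called 399 genes and 2 clock genes (4 against 1 week) and 416 and 1 (8 against 4 weeks). Within Klf9KI hearts at 4 against 1 week it called 6195 genes and 5 clock genes. The axis difference at 1 week was -0.46 with 4 genes against Arntl, and 8 regions lay within 1 kb of a start.

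Leaving out 1 library gave 78 to 238 genes at 1 week, 873 to 2654 at 4 weeks and 518 to 2102 at 8 weeks, with 0 to 2, 1 to 7 and 0 to 4 clock genes. Between ages it gave 106 to 298 genes and 0 to 3 clock genes (4 against 1 week), 942 to 2414 and 0 to 1 (8 against 1), and 18 to 491 and 0 to 1 (8 against 4). Age changes in Klf9KI hearts gave 686 to 4165 genes (8 against 4 weeks), with 2 to 6, 3 to 6 and 3 to 6 clock genes; in Wt-Cre hearts they gave 2004 to 4073 genes (8 against 4 weeks), with 2 to 6, 1 to 4 and 3 to 6.

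Signs of uncalled genes turned at 1 week for Nr1d1 (0.046 with sex, 0.062 without the Xist libraries), Nr1d2 (0.0016) and Arntl (-0.54 and -0.53), at 4 weeks for Per2 (0.53 with Arntl as a covariate), and at 8 weeks for Per1 (-0.00091 in 1 fit, -0.078 with Arntl) and Npas2 (-0.039 and -0.20 with Arntl). Leaving out 1 library gave -0.15 to 0.0053 for Nr1d1, -0.15 to 0.026 for Nr1d2, -0.15 to 0.49 for Per1 and -0.090 to 0.52 for Arntl at 1 week, -0.050 to 1.61 for Arntl at 4 weeks, and -0.095 to 0.29 for Per1, -0.60 to 0.50 for Per2 and -0.44 to 0.76 for Npas2 at 8 weeks. The cause of these changes was not tested.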
